A study of Mus musculus with 32 samples.

Results

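Complement genes of the mouse sciatic nerve were examined in 4 genotypes. The 9 genes were taken by symbol from a table of 45706 genes: C1qa, C1qb, C1qc, C1ra, C2, C4b, C3, C6 and Serping1. The genes were chosen by their complement role with results of these libraries known, and C6 was selected on its count values, which were lower in double mutants than in WT. Comparisons that involve the double mutants are therefore given as descriptions without a test, whereas the comparisons of C3-PMP22 with wild type, of Sipa1l2-/- with wild type and of the sexes were tested. All nerves came from mice aged 6 months, and polyadenylated RNA was sequenced in 32 libraries. Wild type (WT, n = 7, 4 labelled female) carried neither allele. Sipa1l2-/- (n = 9, 4 labelled female) is labelled as lacking both copies of Sipa1l2, which encodes a GTPase-activating protein for Rap and was studied as a modifier of neuropathy. C3-PMP22 (n = 8, 4 labelled female) is a transgenic line with extra copies of the human PMP22 gene, a model of the demyelinating neuropathy Charcot-Marie-Tooth disease type 1A. The double mutant (C3-PMP22 Sipa1l2-/-, n = 8, 5 labelled female) carried both. The strain background and the design of the Sipa1l2 allele are not stated in the labels. Each library is labelled as its own numbered sample, so p-values refer to the spread between these samples.

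Complement is a cascade of plasma and tissue proteins that tags and lyses targets. In the classical pathway the recognition molecule C1q, assembled from the chains of C1qa, C1qb and C1qc, activates the proteases C1r and C1s, which cleave C4 and C2 to form an enzyme that splits C3. The terminal components then assemble on the membrane, with C6 joining C5b before C7, C8 and C9 are added, and C1 inhibitor, the product of Serping1, inactivates C1r and C1s. In tissues C1q is made mainly by macrophages. In rats, loss of C6 is known to delay the breakdown of axons and myelin after nerve injury.

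The libraries held between 11030976 and 16990990 counts, with a median of 13260286.5. A low-count filter left 15403 genes for testing, and all 9 complement genes passed it. Levels are given as CPM, counts scaled to library size. Sipa1l2 transcripts were not lower under the Sipa1l2-/- label: the median CPM was 93.8 there against 73.4 in WT, and 71.7 in double mutants against 82.3 in C3-PMP22. Each genotype name below therefore stands for the libraries labelled so. In 30 of 32 libraries the sex read from sex-linked transcripts was the labelled one; C3-PMP22 7 and 8, labelled female, were the exceptions. Column identifiers began with a number for 19 libraries (plain) and with a G for 13, a grouping called series here whose meaning is not given. Some identifiers also shared the part before the hyphen, among them double mutants 2 to 5, and C3-PMP22 7 and 8. What that shared part stands for is not given, and it was not a term in the fits. All 5 double mutants labelled female were in the plain series and all 3 labelled male in the G series, so sex and series cannot be told apart within that genotype. The libraries carried Schwann cell transcripts as the label sciatic nerve implies, with summed CPM of 8 myelinating Schwann cell markers between 4846 and 29031. Markers of 7 adipocyte genes summed to between 1764 and 14243 CPM, and those of 7 skeletal muscle genes to medians of 2563 CPM in WT and 26837 CPM in C3-PMP22, with 13.9 CPM in the lowest library. In such bulk samples, fewer cells of a type and less RNA per cell cannot be told apart.

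Promoter sequence is shown for C1qb and C1qc and for C6 and C7. C1qb and C1qc lie near each other on chromosome 4 and varied together over the libraries. C6 and C7 lie near each other on chromosome 15 and encode successive terminal components. RefSeq windows (GRCm38.p6) from 250 bases before to 50 after the gene start were at hand for 5 of the 9 genes. Each is written 5′ to 3′ on the strand of the gene, all in lower case except motif matches. The motifs searched on both strands were GAGGAA, the core bound by the myeloid factor PU.1, TTCNNNGAA, a core of STAT sites, and TATAAA, the TATA box. The C1qb window (chr4:136886151-136886450, minus strand) holds GAGGAA in capitals 30 bases before the start.
C1qb: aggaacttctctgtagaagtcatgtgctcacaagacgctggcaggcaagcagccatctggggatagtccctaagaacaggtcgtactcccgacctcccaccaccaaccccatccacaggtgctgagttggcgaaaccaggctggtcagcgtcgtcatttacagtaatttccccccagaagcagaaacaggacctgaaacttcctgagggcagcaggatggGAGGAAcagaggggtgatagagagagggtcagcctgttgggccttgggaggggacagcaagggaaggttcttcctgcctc
The C1qc window (chr4:136892865-136893164, minus strand) holds the same motif on the opposite strand, in capitals as its reverse complement, 193 bases before the start.
C1qc: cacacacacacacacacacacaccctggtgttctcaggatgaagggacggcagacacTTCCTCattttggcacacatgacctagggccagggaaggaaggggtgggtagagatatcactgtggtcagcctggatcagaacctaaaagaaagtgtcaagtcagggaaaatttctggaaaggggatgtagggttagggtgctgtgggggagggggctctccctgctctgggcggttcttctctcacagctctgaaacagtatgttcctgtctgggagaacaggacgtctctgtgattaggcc
The C6 window (chr15:4726960-4727259, plus strand) held none of the motifs.
C6: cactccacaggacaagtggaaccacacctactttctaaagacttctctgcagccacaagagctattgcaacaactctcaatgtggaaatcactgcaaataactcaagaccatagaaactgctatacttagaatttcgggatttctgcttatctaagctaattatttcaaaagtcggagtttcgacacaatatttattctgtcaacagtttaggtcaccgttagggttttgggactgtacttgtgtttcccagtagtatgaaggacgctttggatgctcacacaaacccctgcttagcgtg
The C7 window (chr15:5063724-5064023, minus strand) holds a match to TTCNNNGAA 164 bases before the start and TATAAA on the opposite strand 6 bases before it, both in capitals.
C7: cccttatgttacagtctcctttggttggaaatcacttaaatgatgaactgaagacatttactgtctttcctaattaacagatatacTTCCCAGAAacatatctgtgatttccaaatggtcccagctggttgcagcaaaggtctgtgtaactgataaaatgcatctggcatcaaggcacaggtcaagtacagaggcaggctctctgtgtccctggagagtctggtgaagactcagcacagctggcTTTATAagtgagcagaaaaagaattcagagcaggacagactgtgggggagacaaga
Windows of C1ra and C3 were also at hand and are not shown. That of C1ra holds GAGGAA on the opposite strand and a match to TTCNNNGAA, and that of C3 holds TATAAA. Of 32851 promoters of the same length, 28.3% hold GAGGAA, 8.3% TTCNNNGAA and 13.6% TATAAA on either strand, so a match is a description of the letters and not a binding site.

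Per length of exon, C1 inhibitor was the most abundant of these transcripts in WT nerve and C6 the least. Serping1 had a median of 326 CPM per kb of exon (range 219 to 419) in the 7 WT libraries. C3, the central component, followed with 245 CPM per kb (146 to 268) and C4b, the mouse gene for C4, with 125 CPM per kb (78.1 to 189). The recognition chain C1qa stood at 69.2 CPM per kb, C1qb at 54.6, the protease C1ra at 51.6, C2 at 43.1 and C1qc at 35.5. C6 was at 4.02 CPM per kb (0.532 to 10.1). The WT ranges of neighbours in this order overlapped for every pair except C1qc and C6. C6 also varied most: its highest library held 79.9 times the CPM of its lowest, against 2.01 to 4.51 times for the other 8 genes.

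The transcripts of C1q had somewhat higher medians in double mutants than in WT, with overlapping ranges, and did not pass the test in either single mutant. C1qa lay at 54.8 to 105 CPM (median 72.0) in WT, 49.8 to 113 (74.3) in Sipa1l2-/-, 62.2 to 162 (80.4) in C3-PMP22 and 60.5 to 124 (109.7) in double mutants. The highest 2 libraries of all, C3-PMP22 1 and 5, were labelled male, and 7 of 8 double mutants lay above the WT mean. For C3-PMP22 against WT the log2 fold change of C1qa was 0.31 ± 0.20 (standard error, SE; adjusted p = 0.404 by edgeR's quasi-likelihood test), that of C1qb 0.40 ± 0.22 (adjusted p = 0.316) and that of C1qc 0.28 ± 0.21 (adjusted p = 0.460). For Sipa1l2-/- against WT the values were 0.09 ± 0.20, 0.23 ± 0.21 and 0.14 ± 0.20, with adjusted p of at least 0.961. For double mutants against WT they were 0.46 ± 0.20, 0.47 ± 0.22 and 0.37 ± 0.20, given without a test.

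Within the double mutants, C1q followed the split by labelled sex and series. C1qa was at 105 to 124 CPM in the 5 libraries labelled female and at 60.5 to 86.5 in the 3 labelled male, without overlap. The score of 12 macrophage markers (mean centred log2 CPM) had a median of 0.63 in the former and of -0.34 in the latter, and that of myelinating Schwann cell markers -1.05 and 0.65, so that both lists also separated these libraries. The part of these lists in the C1q levels was not tested.

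**Figure D1:**
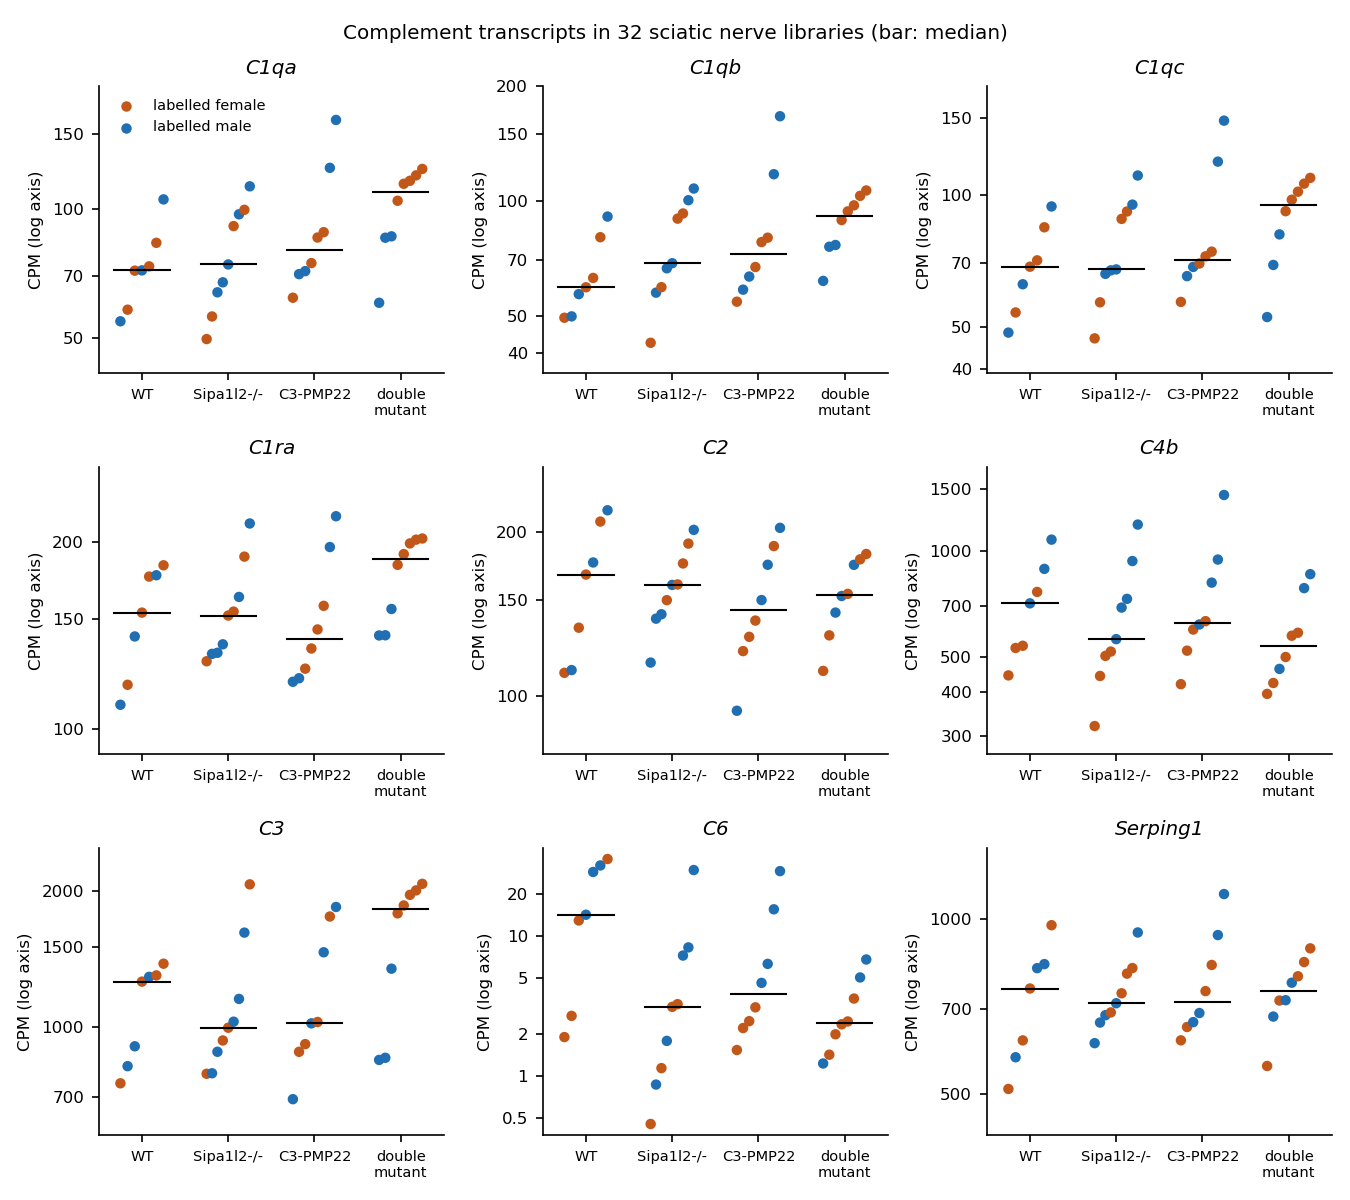
CPM of the 9 complement genes in each of the 32 libraries (log axis), by genotype, with a bar at the median and colour for the labelled sex. C6 had medians of 14.3 CPM in WT and 2.39 CPM in double mutants, with overlapping ranges, and C3 split the double mutants by labelled sex.

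C1ra, the protease that C1q activates, was at 109 to 183 CPM (median 154) in WT, 128 to 214 (152) in Sipa1l2-/-, 119 to 219.7 (139.6) in C3-PMP22 and 141 to 202 (187) in double mutants. Its log2 fold change was 0.02 ± 0.14 for C3-PMP22 and 0.06 ± 0.14 for Sipa1l2-/- against WT, and 0.22 ± 0.14 for double mutants. The near copy C1rb shares 34.5% of the 100-base windows of C1ra, so reads could be divided between them in counting, and C1rb reached at most 4 counts in a library. C1s1, the partner protease, showed the same narrow range, from 336 to 617 CPM over all libraries.

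C2, the protease subunit of the classical C3 convertase, varied little by genotype. It lay at 110.3 to 219 CPM (median 167) in WT, 115 to 202 (159.8) in Sipa1l2-/-, 94.0 to 203 (144) in C3-PMP22 and 111 to 182 (153) in double mutants. Log2 fold changes against WT were -0.11 ± 0.16 in C3-PMP22, -0.02 ± 0.16 in Sipa1l2-/- and -0.07 ± 0.16 in double mutants. C2 shares exon sequence with the transcript Gm20547 on the same strand and with Zbtb12 on the other, and the sources used here do not give whether counting used the strand.

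C3 had its highest median in double mutants, and the highest single libraries were double mutant 1 and Sipa1l2-/- 2. It lay at 750.4 to 1379 CPM (median 1259) in WT, 788 to 2065 (996) in Sipa1l2-/-, 692 to 1840.0 (1022) in C3-PMP22 and 845 to 2069.9 (1818) in double mutants. The 5 double mutants labelled female, all of the plain series, held 1781 to 2069.9 CPM and the 3 labelled male, all of the G series, 845 to 1344, again without overlap. Within the plain series, libraries labelled female held 750.4 and 1259 CPM in WT, 788 to 2065 in Sipa1l2-/- (n = 3) and 1753 in the only C3-PMP22 library. The log2 fold change against WT was 0.16 ± 0.24 in C3-PMP22 (adjusted p = 0.743), 0.09 ± 0.23 in Sipa1l2-/- (adjusted p = 0.979) and 0.49 ± 0.24 in double mutants.

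C4b lay at 445 to 1077 CPM (median 711) in WT, 319.9 to 1189 (563) in Sipa1l2-/-, 420.2 to 1441 (627) in C3-PMP22 and 394 to 860.4 (539) in double mutants. Its log2 fold change was 0.0090 ± 0.18 in C3-PMP22 and -0.23 ± 0.18 in Sipa1l2-/- against WT (adjusted p = 0.983 and 0.961), and -0.25 ± 0.18 in double mutants. The near copy C4a, which shares 15.2% of the 100-base windows of C4b, was at 1.35 CPM or less in every library. Serping1, the gene of C1 inhibitor, lay between 509.6 and 1102 CPM in all libraries, with group medians from 715 to 758. Its log2 fold change against WT was 0.10 ± 0.14 in C3-PMP22, 0.02 ± 0.13 in Sipa1l2-/- and 0.04 ± 0.14 in double mutants.

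C6 was lower in double mutants than in WT, which is the pattern it was chosen for, and it was also at lower medians in both single mutants. WT libraries held 1.89 to 35.9 CPM (median 14.3), Sipa1l2-/- 0.449 to 29.9 (3.12), C3-PMP22 1.53 to 29.4 (3.86) and double mutants 1.22 to 6.82 (2.39). All ranges overlapped: WT 1 and 2 held 1.89 and 2.68 CPM, whereas the other 5 WT libraries held at least 13.0. The log2 fold change of double mutants against WT was -2.49 ± 0.64, and all 8 lay below the WT mean. In absolute terms these are few counts, from 6 to 513 per library over the series.

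By labelled sex and series the difference in C6 was not uniform. Among males, WT held 14.3 to 32.3 CPM (n = 3) and double mutants 1.22 to 6.82 (n = 3), without overlap. Among libraries labelled female in the plain series, WT held 1.89 and 2.68 CPM and double mutants 1.41 to 3.57 (n = 5), which overlap. The WT libraries labelled female in the G series held 13.0 and 35.9 CPM, and no double mutant had that combination of labels. Without WT 4, the library with the highest C6, the log2 fold change of double mutants against WT was -1.73.

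In the single mutants, which share the WT libraries with that comparison, C6 did not pass the test. The log2 fold change was -1.69 ± 0.63 for C3-PMP22 against WT (adjusted p = 0.178, 7 of 8 libraries below the WT mean) and -2.07 ± 0.61 for Sipa1l2-/- against WT (adjusted p = 0.839, 8 of 9 below). Both became smaller without WT 4, at -1.04 (adjusted p = 0.421) and -1.43. Without C3-PMP22 7 and 8 the value in C3-PMP22 was -1.48 (adjusted p = 0.560). Double mutants against C3-PMP22 gave -0.80 ± 0.64 and against Sipa1l2-/- -0.42 ± 0.62, given without a test.

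Adipocyte transcripts moved with C6. The mean score of 7 adipocyte markers was 0.69 in WT and lower elsewhere, at -0.32 in C3-PMP22, -0.15 in double mutants and -0.12 in Sipa1l2-/-, and the median of their summed CPM was 10009 in WT against 3778 in C3-PMP22, 4419 in double mutants and 4665 in Sipa1l2-/-. Lep, the hormone of fat cells, had medians of 695 CPM in WT and 165 in double mutants, and Adipoq, which encodes adiponectin, 1057 and 665. Of the 7 markers Lep differed most, with a log2 fold change of -2.03 in double mutants against WT. The others lay between -0.77 and -0.37. The Pearson correlation of C6 with the adipocyte score was 0.82 over the 32 libraries and 0.83 after the genotype means were removed. With the score as a term in the fit, the log2 fold change of C6 was -0.99 for double mutants, -0.11 for C3-PMP22 and -1.02 for Sipa1l2-/-, each against WT. The score itself differed between the genotypes, so this fit cannot separate genotype from adipocyte content. The part of adipocyte content in the C6 level was not tested. The libraries with the highest C6 among Sipa1l2-/- (29.9 CPM) and C3-PMP22 (29.4 CPM) also had the highest adipocyte scores of their genotypes, 1.46 and 1.07. In WT and double mutants this was not so. The highest C6 of WT (35.9 CPM) came with a score of 1.09, and the highest WT score (1.45) with a C6 of 32.3 CPM. Among double mutants the highest C6 (6.82 CPM) came with a score of -0.22 and the highest score (0.55) with a C6 of 2.34 CPM.

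**Figure D2:**
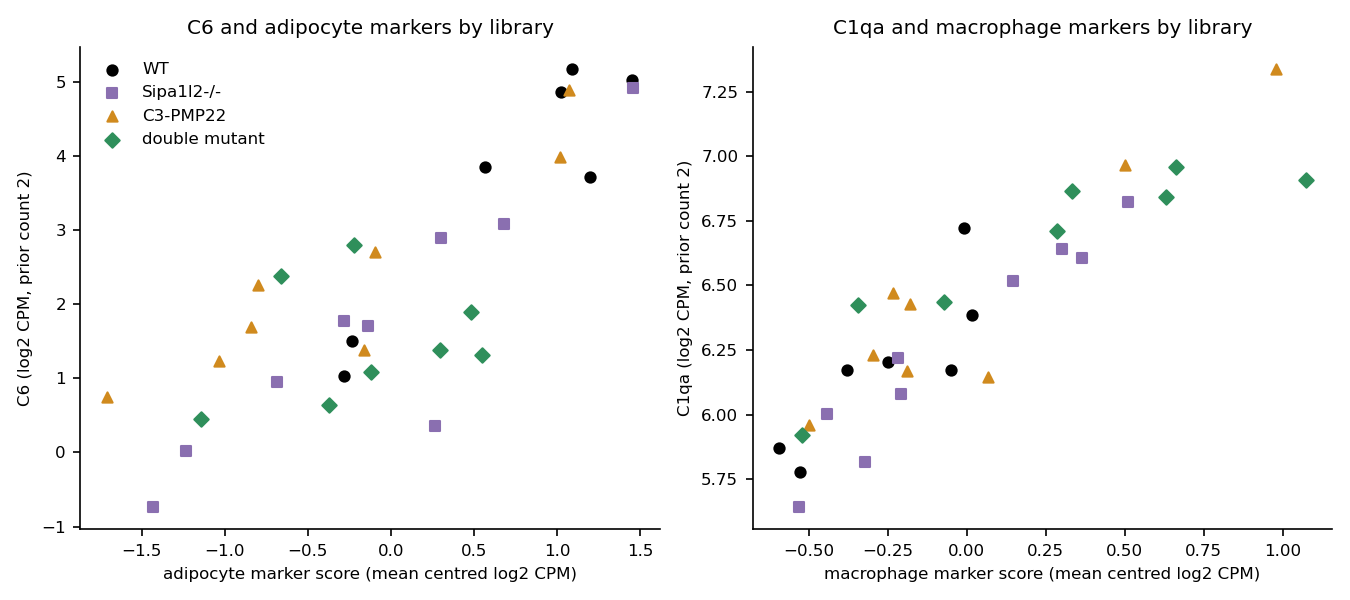
Left, log2 CPM of C6 against the adipocyte marker score, and right, log2 CPM of C1qa against the macrophage marker score, with 1 point per library and symbols for genotype. Both genes were higher in libraries with higher scores, and the Pearson r was 0.82 on the left and 0.90 on the right (n = 32).

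Counted over the list, no complement gene was called in either single mutant. In simulated data the test called 7.5% of 1.5-fold changes for C3-PMP22 and 12.7% for Sipa1l2-/- against WT. A gene without a call may therefore still differ by that much. The simulated counts had the spread usual at a gene's level and no differences beyond those put in. These shares do not hold for C6, whose log2 CPM had an SD of 1.62 over the 32 libraries. In C3-PMP22 against WT, 0 of 9 genes passed an adjusted p of 0.05, where 0.688% of all tested genes did, and 1 of 9 (C6) had an unadjusted p under 0.05, as did 2789 of 15403. The median log2 fold change of the 9 was 0.10, against 0.04 over all tested genes. In Sipa1l2-/- against WT, 0 of 9 passed and 0% of all tested genes did, where 1 of 9 (C6) and 803 of 15403 had an unadjusted p under 0.05. The median log2 fold change of the 9 was 0.06, against 0.02 over all tested genes. DESeq2 also called 0 genes there, and 375 in C3-PMP22 against WT, none of the 9 complement genes among them. In double mutants 1.38% of all tested genes passed against WT, 0% against C3-PMP22 and 0.721% against Sipa1l2-/-. The shares that passed with a lower level in double mutants were 0.863%, 0% and 0.351%. Nothing is read from these shares for the 9 complement genes, since the pattern of C6 served to choose them. That choice also used the WT libraries with which both single mutants were compared. The unadjusted p of C6 in the single mutants therefore gives no support of its own.

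**Figure D3:**
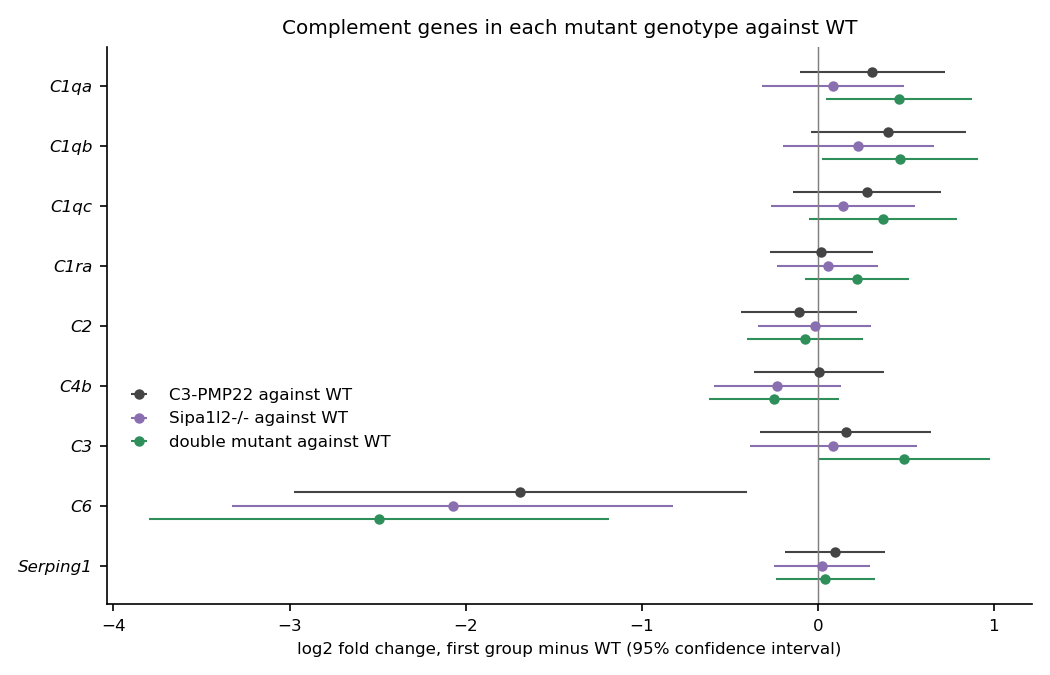
Log2 fold change of each complement gene in C3-PMP22, Sipa1l2-/- and double mutants against WT, with 95% confidence intervals from edgeR. The intervals of double mutants are a description of spread and not a test, because C6 was chosen on that comparison. The 3 comparisons share the WT libraries. C6, chosen for its lower level in double mutants, was at -1.69, -2.07 and -2.49, and the other 8 genes lay between -0.25 and 0.49.

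The other genes of the pathway were taken from a list of 55, of which 35 had enough counts to be tested. In C3-PMP22 against WT 0 of 35 passed, 5 had an unadjusted p under 0.05 (2789 of 15403 over all tested genes), and the smallest adjusted p was 0.0659 for Cd93, a surface lectin of endothelial and myeloid cells (log2 fold change -0.42 ± 0.11). The summed CPM of 6 endothelial markers had medians of 488 in WT and 397 in C3-PMP22, and their part in the value of Cd93 was not tested. DESeq2 called Cd93 and C7 among the 35. C7 was at 1.86 ± 0.63 in edgeR (adjusted p = 0.149) and at 1.86 in DESeq2 (adjusted p = 0.0497), but at -0.22 without C3-PMP22 7 and 8 and at -0.06 with sex from sex-linked transcripts. In Sipa1l2-/- against WT 0 of 35 passed, with edgeR or DESeq2, and 2 had an unadjusted p under 0.05 (803 of 15403 over all tested genes). Of the terminal components beyond C6 the nerve expressed C7, at 4.71 to 252.5 CPM, and C8g at up to 1.47 CPM. Hc, the gene for C5, reached at most 45 counts in a library, C8a 4, C8b 1 and C9 4, and these were not tested. Transcripts of the alternative pathway were present, with Cfd at 450.5 to 3134 CPM and Cfb at 49.4 to 324 CPM, and which cells they came from was not tested. Colec12, a scavenger receptor with a collectin domain, was at 72.0 to 159 CPM. Among the recognition molecules of the lectin pathway, Fcna, which encodes ficolin A, was at 3.32 to 63.0 CPM. Colec11 reached 6.56 CPM and the protease gene Masp1 4.28 CPM, whereas the mannose-binding lectin gene Mbl1 had no more than 5 counts in a library and Mbl2 had counts in 1 library.

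C4b was lower in females. In the 17 libraries labelled female C4b lay at 319.9 to 766 CPM (median 519.7) and in the 15 labelled male at 464 to 1441 (median 814), and all 17 female libraries lay below the male mean. The log2 fold change, female minus male, was -0.72 ± 0.13 (adjusted p = 0.00163), and 1.34% of all tested genes passed in this comparison, 0.883% lower in females. Within the series the difference in mean log2 CPM was -0.71 among plain identifiers (11 female, 8 male) and -0.62 among G identifiers (6 and 7). Without C3-PMP22 7 and 8 the fold change was -0.69 (adjusted p = 0.00521), and with sex taken from the sex-linked transcripts it was -0.62 (adjusted p = 0.0292). The muscle score also differed by labelled sex, with medians of 2.73 in females and -0.96 in males, and correlated with C4b at -0.63. With that score in the fit the difference in C4b was -0.52 (adjusted p = 0.0246).

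C6 went the same way by sex without passing the threshold, at -1.71 ± 0.46 (adjusted p = 0.0527, 15 of 17 female libraries below the male mean). It was -2.14 among plain and -0.40 among G identifiers, and -1.58 without C3-PMP22 7 and 8 (adjusted p = 0.108). The adipocyte score had medians of -0.16 in libraries labelled female and 0.30 in those labelled male, and with it in the fit the difference in C6 was -0.99 (adjusted p = 0.0237). The call turned on single libraries and on the test: without WT 4 the adjusted p was 0.00874, and DESeq2 gave 0.00267. The other 7 genes had log2 differences between -0.10 and 0.26, none of which passed. In a fit with terms for C3-PMP22 by sex and Sipa1l2-/- by sex, none of the 9 genes passed in edgeR, and the smallest unadjusted p was 0.129 for C1qc.

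Of the 35 other complement genes, C7 and Sez6l passed in the comparison of the sexes, both lower in females. C7, which binds the C5b-6 complex, lay at 4.71 to 20.4 CPM in libraries that are female by their sex-linked transcripts and at 62.9 to 252.5 in the male ones, without overlap. C3-PMP22 7 and 8, labelled female, held 135 and 186 CPM, on the male side. By the labels the log2 fold change of C7 was -2.85 ± 0.45 (adjusted p = 0.000512), and by sex-linked transcripts -3.76. Within the series the difference by label was -3.39 among plain and -2.50 among G identifiers. Sez6l, a sushi-domain membrane protein of a family reported to restrain C3 convertases, was at -2.49 ± 0.51 (adjusted p = 0.00758), and passed neither with the muscle score in the fit (adjusted p = 0.0755) nor with sex from the transcripts (adjusted p = 0.0517). Its difference by label was -2.61 among plain and -0.66 among G identifiers. Its Pearson r with the adipocyte score was 0.77, and with that score in the fit the difference was -1.53 (adjusted p = 0.0121). C6 and C7 share no 100-base window of transcript sequence.

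**Figure D4:**
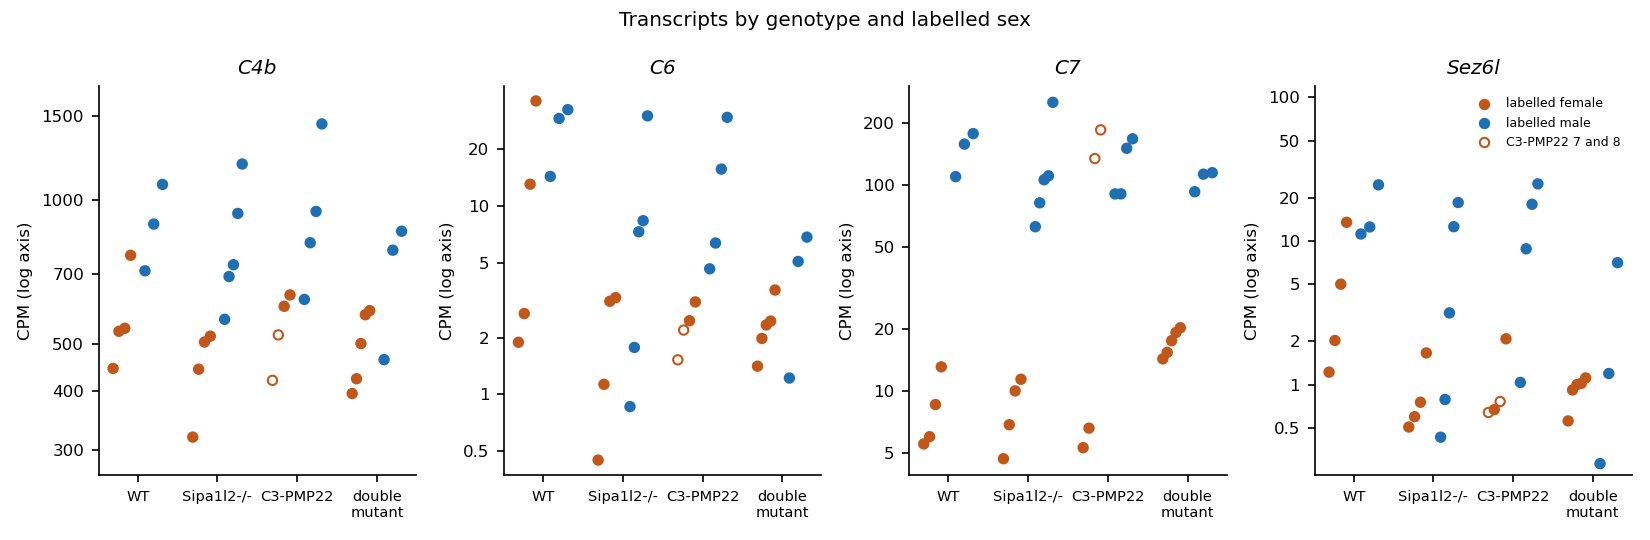
CPM of C4b, C6, C7 and Sez6l (log axis) by genotype and labelled sex, 1 point per library; open circles are C3-PMP22 7 and 8, whose sex-linked transcripts go against their label. C7 lay at 20.4 CPM or less in every other library labelled female and at 62.9 CPM or more in every library labelled male.

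Over the 32 libraries the complement genes fell into sets that varied together. These correlations describe libraries that share tissue content and sequencing depth, and carry no test. C1qa, C1qb and C1qc had Pearson r of 0.97 to 0.98 with each other, and 0.88 to 0.92 with the score of 12 macrophage markers, none of which is a C1q gene. Their r with the fibroblast score was 0.72 to 0.78. C1ra went with C1q (0.79 to 0.82) and C3 (0.81), and about equally with the macrophage (0.81) and fibroblast scores (0.80). C2 and Serping1 correlated at 0.75, C2 most with perineurial markers (0.82) and Serping1 with fibroblast (0.72) and perineurial (0.61) markers. C4b and C6 formed a separate set with r = 0.77, and C6 had r between -0.02 and 0.05 with the other 7 genes. C4b and C6 were both lower in libraries labelled female, and the part of sex in their r was not tested. C3 had its lowest r with the myelinating Schwann cell score, at -0.68, a value that C1qa (-0.61) and C1ra (-0.62) approached. After genotype means were removed, r was 0.80 for C4b and C6 and 0.97 to 0.98 within C1q, and that of C6 with the other 7 genes was 0.04 to 0.17. The 3 C1q genes then had r of 0.86 to 0.91 with the macrophage score and 0.83 to 0.85 with the fibroblast score.

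**Figure D5:**
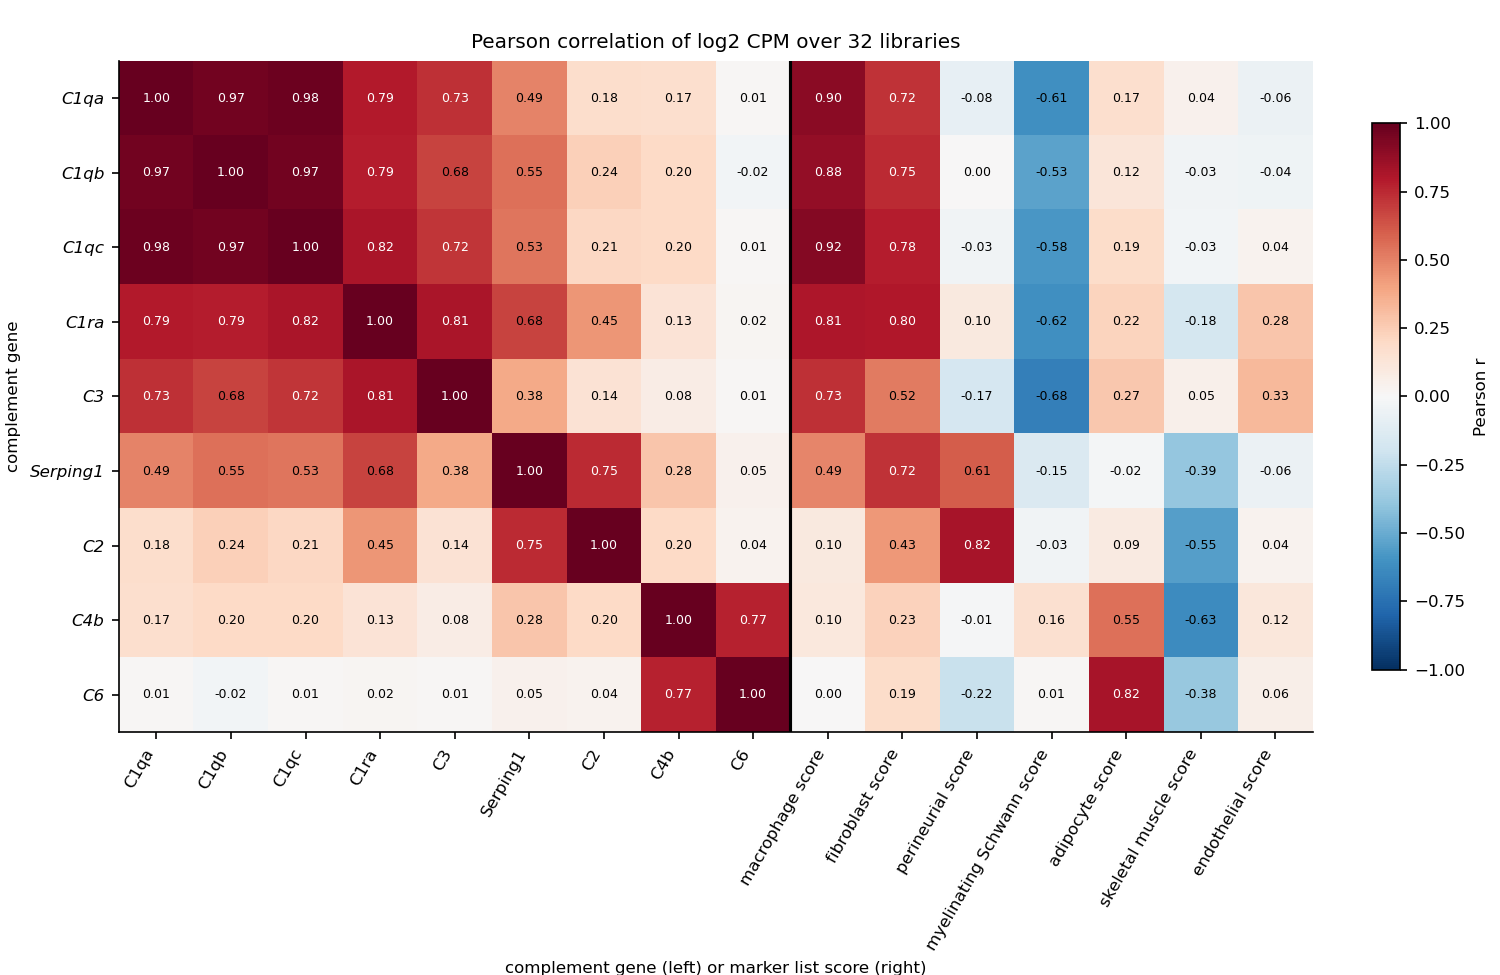
Pearson correlation of log2 CPM between the complement genes (left of the line) and with the scores of 7 marker lists (right) over 32 libraries; colour runs from -1 to 1. C1q, C1ra and C3 share a block with the macrophage score, which for C1q and C1ra extends to the fibroblast score. C2 and Serping1 share another with the perineurial score, and C4b and C6 one with the adipocyte score. C4b had r of 0.55 with the adipocyte score and of -0.63 with the skeletal muscle score.

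Among genes outside the list with a mean of at least 1 CPM, those most like the mean of C1qa, C1qb and C1qc over the 32 libraries were Tyrobp, an adaptor of myeloid receptors (r = 0.87), Lgmn, Pld4, Ctsh and Fcgr3 (r = 0.86 for Fcgr3). C3 was most like Itga11, a collagen-binding integrin chain of fibroblasts (r = 0.84), Ackr2, Il1rl1, Sema4a and Fbln1. C4b was most like Serpina3n, a secreted protease inhibitor, and Pcdh7 (both r = 0.87), followed by Lama4, Slit3 and Rad51d. C6 was most like Irak2, a kinase of interleukin-1 and Toll-like receptor signalling (r = 0.93), Sez6l (0.91), Dock8 (0.91), Mfge8 (0.91) and Rap1gap2 (0.90). The log2 fold changes of those 5 genes in double mutants against WT lay between -2.55 and -0.72, values given as description because they were selected for likeness to C6.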

How the data were processed

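The authors' deposited table gives expected counts for each gene in each library, rounded to whole numbers before deposit. Trim Galore, FastQC and RSEM and the mouse build GRCm38 (mm10) are named in the submitters' processing notes; the sources used here give no versions, aligner, annotation release or use of strand. Symbols, positions and exon lengths came from GENCODE M21. The genes and lists were chosen with earlier results of these data known.

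Counts were filtered with filterByExpr by genotype (minimum count 10, minimum total 15), scaled by TMM and fitted with edgeR 4.0.16 (quasi-likelihood, R 4.3.3) with terms for genotype and labelled sex on all 32 libraries. Genes with a Benjamini-Hochberg adjusted p under 0.05 over 15403 genes were called. CPM use TMM-scaled library sizes; log2 CPM have a prior count of 2. The test was checked on simulated data with known fold changes, drawn at the spread usual for a gene's level. For C3-PMP22 against WT it called 7.5% of 1.5-fold and 59.4% of 2-fold changes. For Sipa1l2-/- against WT these shares were 12.7% and 56.9%, and by sex 51.5% and 92.1%. DESeq2 1.42.0 and other settings were alternatives, with sex from sex-linked transcripts chosen after seeing the data.

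All 9 genes are given in every comparison; other complement genes are named where called, up to 6 per comparison, and the 5 genes with the highest Pearson r for C6, C3, C4b and the C1q mean. Cd93, C1s1, C8g, Hc, Cfd, Cfb and the other untested complement genes, C3ar1, Clu, Cd59a, Itgax, Fcna, Colec11, Colec12, Masp1, Lep and Adipoq were named after their values were seen. Marker lists for macrophages, fibroblasts, perineurial cells, Schwann cells, adipocytes, skeletal muscle, endothelium, lymphocytes, neutrophils, erythrocytes and hepatocytes were scored as the mean centred log2 CPM of tested members.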

Additional observations from a re-analysis of the deposited data

Results flagged for a closer look

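C6 in Sipa1l2-/- 7 was at 29.9 CPM, set apart from the other 8 libraries of its genotype, the nearest of which held 8.33 CPM; the gap was 0.733 of the whole range. It was the one such case in 36 groups of values examined, where chance gives about 1 in 20. The adipocyte marker score of that library was 1.46, the highest of its genotype, and its part in the C6 level was not tested.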

How the results depend on the processing

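The difference in C4b and that in C7 between the sexes kept direction and call under the 11 alternatives that give a sex difference and in each fit with 1 of 32 libraries left out. Sez6l lost its call with the sample number as a block (adjusted p = 0.0907), with the muscle score and with sex from transcripts. C6 by sex was called with DESeq2, with the adipocyte score (-0.99, adjusted p = 0.0237) and without any one of WT 3, WT 4, Sipa1l2-/- 3, Sipa1l2-/- 8, C3-PMP22 1 or double mutant 8. Sample numbers were not treated as pairs, because no comparison had every same-number correlation of deviations over 0.1. That rule cannot exclude a weaker link between samples of the same number. The same-number medians were 0.04 for C3-PMP22, 0.36 for Sipa1l2-/- and 0.09 for double mutants against WT, and 0.24 and 0.23 for double mutants against C3-PMP22 and Sipa1l2-/-, with lowest values from -0.56 to -0.03. Medians between different numbers ran from -0.040 to 0.0058. In each comparison with WT 1 of 7 samples correlated best with its own number, and in the others 2 of 8. With the number as a block, the sex comparison called 93 genes and C4b stayed called (-0.63, adjusted p = 0.0418).

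Counts of called genes moved as follows. DESeq2 called 375 genes in C3-PMP22, 499 in double mutants against WT, 11 against C3-PMP22, 219 against Sipa1l2-/- and 443 by sex. The adipocyte score gave 677 in double mutants against WT, 202 against Sipa1l2-/- and 596 by sex, and the muscle score 99 by sex. Double mutants against WT gave 118 with total counts and 134 without the sex term, and against Sipa1l2-/- 68 with only the compared groups. C3-PMP22 gave 59 without C3-PMP22 7 and 8. With single libraries left out the counts were 71 to 409 in C3-PMP22 (409 without WT 3, 183 without C3-PMP22 2, 231 without C3-PMP22 5), 112 to 293 in double mutants against WT (112 without WT 6, 115 without WT 5, 122 without WT 4, 126 without double mutant 2, 141 without double mutant 8) and 124 to 321 by sex (124 without Sipa1l2-/- 2, 129 without double mutant 7, 137 without WT 7, 321 without C3-PMP22 6). Total counts moved the median over all genes' log2 fold changes by -0.17 in C3-PMP22 against WT and by 0.11 in double mutants against C3-PMP22. The share of calls that were higher in C3-PMP22 was 54.7% as reported, 41.3% with DESeq2's size factors and 27.8% with total counts; in double mutants against WT it was 37.6% and 28.8% with total counts.

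Of 2543 alternative log2 fold changes, 67 in the tested comparisons changed sign, none of them called, with a size of at most 0.22. The 2543 include comparisons of the double mutants, whose sign changes are not in that count. For C6 in double mutants against Sipa1l2-/-, reported as -0.42, the highest value over the settings was positive. With single libraries left out that value reached 0.15. In double mutants C1qb against C3-PMP22 and C4b against Sipa1l2-/- also changed sign, among others. Against WT in C3-PMP22, C1ra turned to -0.0045 (DESeq2's size factors), -0.13 (total counts), -0.0044 (DESeq2), -0.0049 (no filter) and -0.033 (only the compared groups), and C4b in the same order to -0.017, -0.14, -0.017, -0.017 and -0.028, and to -0.086 with sex from transcripts. Serping1 turned to -0.055 with total counts, and C7 to -0.22 and -0.059 as given above. In Sipa1l2-/- total counts gave C1ra -0.010 and Serping1 -0.039; C2 turned to 0.0060 (replicate block), 0.047 (series term), 0.0050 (muscle) and 0.013 (adipocyte); the series term gave C1qa -0.031 and C3 -0.036. By sex, C1ra turned to -0.0083 (total counts), C2 to 0.021 (replicate block), 0.0038 (series term), 0.0043 (without C3-PMP22 7 and 8), 0.15 (muscle) and 0.029 (sex from transcripts), Serping1 to 0.065 (muscle) and 0.00018 (sex from transcripts), C1qa to 0.0027 (adipocyte) and 0.014, and C1qc to 0.030 (both sex from transcripts). With single libraries left out, in C3-PMP22 C1ra ran from -0.080 to 0.079 and C4b from -0.11 to 0.10. In Sipa1l2-/- C1ra ran from -0.016 to 0.11, C2 from -0.096 to 0.079, C3 from -0.058 to 0.17 and Serping1 from -0.043 to 0.11. By sex C1qa ran from -0.13 to 0.019, C1qc from -0.14 to 0.014, C2 from -0.060 to 0.024 and Serping1 from -0.074 to 0.0050. Apart from total counts and the left-out libraries, the cause of these changes was not tested. The C6 counts ran from 6 to 513 per library.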

Other observations

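Among the other complement genes, medians in double mutants and WT were 27.7 and 19.2 CPM for C3ar1, the receptor of the C3a fragment, 79.5 and 64.8 CPM for Clu, which encodes the terminal pathway inhibitor clusterin, and 1642 and 855 CPM for Cfd, the activating protease of the alternative pathway. Others had lower medians in double mutants than in WT, at 117 and 184 CPM for Cfb, the factor B gene of the alternative pathway, 103 and 157 CPM for Cd59a, an inhibitor of the membrane attack complex, and 4.28 and 7.36 CPM for Itgax, a chain of a complement receptor. The ranges overlapped for all of them, and they were named after their values were seen. Sez6l, called above in the comparison of the sexes, had medians of 1.01 CPM in double mutants and 11.2 CPM in WT, also with overlapping ranges. Its log2 fold change was -2.55, the lowest of the 35 genes, given without a test.

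Other marker lists were at low or variable levels. In all genotypes 2 of 5 lymphocyte markers had enough counts to be tested, at a summed 7.28 CPM or less, and 3 of 4 neutrophil markers were tested, at 77.5 CPM or less. Of 5 hepatocyte markers 1, Alb, was tested. Erythrocyte markers had median sums of 1021 CPM in WT and 604 in double mutants. Perineurial markers had median sums of 967 CPM in WT and 1156 in double mutants, and fibroblast markers of 9000.2 and 9187.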
